A study of Vitis vinifera with 6 samples.

Results

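In the terminal buds of the grapevine ‘Jingyanjing’, 61 of 18119 genes whose mean over the 6 libraries reached 1 FPKM were lower in every library of the autotetraploid (4X) than in every library of the diploid (2X) by more than 0.5 on the scale of log2(FPKM + 1). FPKM gives the fragments of a transcript per kilobase of its length, scaled to the mapped total. It is a relative value that can be compared roughly between genes. Its sum differs between libraries, so it is not an exact share of all transcripts. The genes were chosen by this gap between the highest of 3 4X libraries and the lowest of 3 2X libraries, so their difference between the ploidies is given here as a description and is not tested. The 4X vines were obtained from tissue culture plantlets of ‘Jingyanjing’ by colchicine and propagated as several lines, and the 2X vines were plantlets of the same cultivar without the chromosome doubling. Both were planted in the same vineyard under the same care. Sampling took place roughly a week ahead of bud abscission in 4X, and the RNA of a library came from several buds combined as a biological replicate. The groups therefore differ in ploidy and also in the approaching loss of the bud, and these cannot be told apart. Each library is a bulk sample, so fewer cells of a type and less RNA per cell cannot be told apart either.

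An autotetraploid carries additional copies of the same chromosome sets, so all genes are raised in copy number alike and a value relative to the whole library does not show a change that all genes share. The shoot tip holds a meristem, young leaf primordia and stem tissue, and in 4X an abscission zone forms below it. A gene that is lower in 4X in this kind of measurement has a lower level relative to the other transcripts of the tip than it has in 2X.

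The table lists 29971 genes by VIT identifiers, and summed FPKM lay between 1028190 and 1125410 per library, with 17816 to 18058 genes at 1 FPKM or more. A rough relative depth, inferred from values under 0.3 FPKM, was 0.977 to 1.10 of that of 2X replicate 1. It rests on 123 to 261 genes per library and is no count of reads. Before identifiers were left out, 71 genes met the gap, or 0.392% of the genes tested. Of these, 10 lay on the scaffold VIT_16s0013, which was left out together with VIT_11s0052, where no gene met it. The same gap in the opposite direction was met by 115 genes, or 0.635%, and by 112 of them outside these scaffolds. With no minimum gap, the ploidies did not overlap in 1604 genes that were lower in 4X (8.85%) and in 2029 that were higher (11.2%). The tissue was checked only with KNAP2 (VIT_18s0001g08380), which is also among the auxin genes described below. It is a knotted-like homeobox gene of the study's primer table. Homologs of this family are known from Arabidopsis as meristem regulators. KNAP2 had 56.8, 53.6 and 43.2 FPKM in 4X, against 87.3, 63.6 and 80.8 FPKM in 2X. It was therefore present in all 6 libraries and lower in 4X, and its difference of -0.58 ± 0.15 (SE) on the log2 scale was not called by limma (Benjamini-Hochberg adjusted p = 0.195, n = 3 each). The part of meristem cells in the results was not tested.

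In most of the 61 genes the nearest 4X and 2X libraries were not much further apart than the gap requires. The gap was between 0.5 and 0.75 in 42 genes and above 1 in 4, with a median of 0.68 and a highest value of 2.02. The mean FPKM in 4X divided by that in 2X, called the ratio below, had a median of 0.398 and ran from 0.0939 to 0.594, beside a median of 1.01 over all genes tested. It was at most 0.25 in 10 genes, at most 0.5 in 46 and above 0.5 in 15. In 13 genes every 4X value was below 0.5 of every 2X value. On the log2 scale the difference had a median of -1.14 and ran from -2.75 to -0.62, where the median of all genes tested was 0.01.

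**Figure D1:**
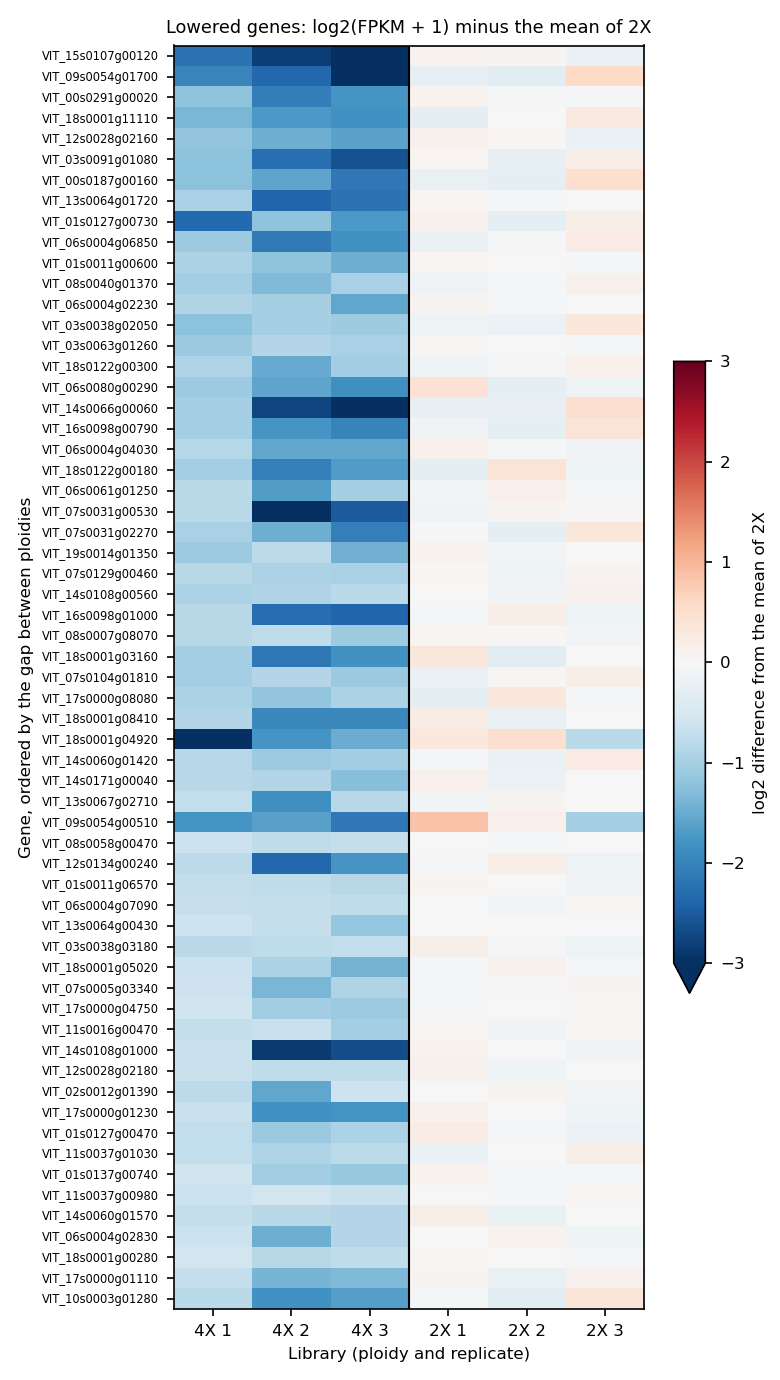
Each row is 1 of the 61 genes, ordered from the largest gap at the top, and each column is a library, with 4X replicates 1 to 3 left of 2X replicates 1 to 3. The colour gives log2(FPKM + 1) minus the mean of the 2X libraries of that gene. The column of 4X replicate 1 is paler than those of 4X replicates 2 and 3 in most rows, with median differences of -0.85, -1.39 and -1.32.

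At the limit, VIT_17s0000g01110 was just inside with a gap of 0.504, at 299.8, 187 and 197 FPKM in 4X and 525, 426 and 537 FPKM in 2X. VIT_10s0003g01280 was inside with 0.501, at 11.8, 5.46 and 6.16 FPKM in 4X and 20.9, 17.2 and 28.1 FPKM in 2X. The nearest genes outside had gaps that differed from these only in the third decimal. VIT_08s0007g06270 was outside with 0.497, at 63.9, 92.5 and 77.3 FPKM in 4X and 154, 131 and 221 FPKM in 2X. VIT_17s0000g00810 was outside with 0.494, at 50.3, 42.2 and 39.1 FPKM in 4X and 76.5, 71.2 and 84.4 FPKM in 2X. The 61 genes are thus the upper end of a continuous series of gaps, and 0.5 is no natural limit in it.

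The genes were neither weakly nor strongly expressed as a group. Their mean FPKM over the 6 libraries had a median of 16.4, beside 17.3 for all genes tested, and ran from 1.15 to 997. Between 1 and 5 FPKM 14 of 3764 genes met the rule (0.372%), between 5 and 20 FPKM 22 of 6048 (0.364%), between 20 and 100 FPKM 17 of 6343 (0.268%) and from 100 FPKM 8 of 1964 (0.407%). In these 4 classes the median ratio was 0.320, 0.421, 0.436 and 0.460, so the decrease in FPKM was deeper among the weaker genes. The rule works on log2(FPKM + 1), where the added 1 narrows the gap of a weak gene, so a weak gene needs a lower ratio to meet it.

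The highest mean belonged to VIT_11s0016g00470, with 764, 798 and 623 FPKM in 4X and 1298, 1177 and 1321 FPKM in 2X. The lowest belonged to VIT_14s0060g01570, with 0.670, 0.530 and 0.470 FPKM in 4X and 2.09, 1.39 and 1.74 FPKM in 2X. Neither has a description in the sources used here. Together the 61 genes summed to 2774, 2142 and 2036 FPKM in 4X and to 5285, 4970 and 5570 FPKM in 2X, which is 0.247%, 0.208% and 0.190% of all FPKM of the 4X libraries and 0.506%, 0.455% and 0.497% of the 2X libraries. The 3 genes with the highest means held 50.9% of the sum, and the ratio of the summed FPKM was 0.439 with them and 0.411 without them.

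The gene with the widest gap was VIT_15s0107g00120, which the study's table of differentially methylated regions describes as a nuclear repressor of flowering that acts in the response to ambient temperature. It had 2.22, 1.12 and 0.608 FPKM in 4X, against 15.1, 14.9 and 12.0 FPKM in 2X. The highest 4X library was thus far below the lowest 2X library, and the ratio of the means was 0.0939. Its log2 difference was -2.75 ± 0.26 (SE, n = 3 each). Methylation was not analysed here.

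The next 9 genes by gap include 1 with a description. VIT_09s0054g01700 had 4.11, 2.94 and 1.40 FPKM in 4X and 15.8, 14.9 and 29.1 FPKM in 2X. VIT_00s0291g00020 had 17.5, 9.13 and 11.4 FPKM in 4X and 44.3, 39.4 and 40.6 FPKM in 2X. VIT_18s0001g11110 had 0.925, 0.525 and 0.425 FPKM in 4X and 3.17, 3.99 and 4.98 FPKM in 2X. These 3 and the flowering repressor were the genes with a gap above 1, and the last of them was below 1 FPKM in all 4X libraries. VIT_12s0028g02160 had 90.6, 74.8 and 67.8 FPKM in 4X and 230.0, 217 and 182 FPKM in 2X. VIT_03s0091g01080 had 18.1, 8.34 and 6.30 FPKM in 4X and 45.5, 36.8 and 50.1 FPKM in 2X. VIT_00s0187g00160, the strongest of the 10, had 359, 281 and 189 FPKM in 4X and 727, 693 and 1197 FPKM in 2X. All 3 were clearly expressed in both ploidies, so their lower level in 4X was not a loss of the transcript. VIT_13s0064g01720 had 5.06, 1.28 and 1.54 FPKM in 4X and 11.4, 10.5 and 10.7 FPKM in 2X. VIT_06s0004g06850 had 2.73, 0.819 and 1.22 FPKM in 4X and 5.90, 6.58 and 8.35 FPKM in 2X. In both, 4X replicate 1 was nearest to the diploid. VIT_01s0127g00730, listed under the Gene Ontology (GO) term DNA binding, went the other way, with 3.33, 8.56 and 5.66 FPKM in 4X and 23.1, 16.8 and 23.6 FPKM in 2X.

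The study's tables, as held here, give a description or a GO term for 8 of the 61 genes. The other 53 are known here by identifier only. Of the 27 GO terms for decreased genes read here, 13 are held in full, so more of the 53 may be listed. Beside the flowering repressor, the 8 hold a subunit of the Mediator complex, which links transcription factors to RNA polymerase, the homeobox gene HAT22, the pair of genes listed under DNA binding, 1 gene listed under transcription regulator activity, 1 under nucleus and 1 under plasmodesma. The GO terms come from the study's own list of genes that were lower in 4X, so membership in them is not independent of the direction.

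VIT_14s0066g00060, annotated as the Mediator subunit Med28, had 5.85, 1.06 and 0.305 FPKM in 4X and 10.7, 10.7 and 18.7 FPKM in 2X. The 4X libraries spread widely, with replicate 1 much nearer to 2X than the other 4X libraries, and the log2 difference of -2.40 had an SE of 0.59. It is also in the table of differentially methylated regions, whose 12 genes the study chose for a large change of expression in these libraries. Of the 12, 6 passed the level of 1 FPKM, 3 are listed as decreased, and 2 of these 3 are among the 61, so this count says nothing of methylation.

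HAT22 (VIT_18s0001g08410), a homeodomain-leucine zipper transcription factor gene known from Arabidopsis, is placed by the study among the cytokinin genes. It was measured there with the primer pair below, printed because it identifies the transcript that carries the name.
HAT22 forward: cttcaaacaacacagcactctc
HAT22 reverse: caactcgcagtccacttcag
The forward primer has 22 bases and the reverse primer 20. In the libraries, HAT22 had 3.72, 1.30 and 1.30 FPKM in 4X and 9.24, 6.53 and 7.68 FPKM in 2X. Its ratio was 0.270 and its log2 difference -1.58 ± 0.30 (SE, n = 3 each). The other 4X libraries were nearly identical, and 4X replicate 1 lay between them and the diploid.

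VIT_07s0005g03340, the other gene under DNA binding, had 7.09, 3.85 and 5.71 FPKM in 4X and 11.2, 10.97 and 12.2 FPKM in 2X. VIT_08s0007g08070, listed under transcription regulator activity and cell wall organization, had 1.72, 1.83 and 1.30 FPKM in 4X and 4.03, 3.94 and 3.54 FPKM in 2X. VIT_06s0080g00290, listed under nucleus, had 49.1, 34.4 and 28.7 FPKM in 4X and 142, 86.4 and 94.7 FPKM in 2X. The highest 4X library was replicate 1 in the first and the last of these and replicate 2 in the other. VIT_12s0028g02180 is listed under cell-cell junction, plasmodesma and symplast, the terms for the channels that join plant cells. It had 37.2, 35.3 and 34.8 FPKM in 4X and 66.0, 55.2 and 59.7 FPKM in 2X, with the highest ratio of all 61 genes, 0.594.

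**Figure D2:**
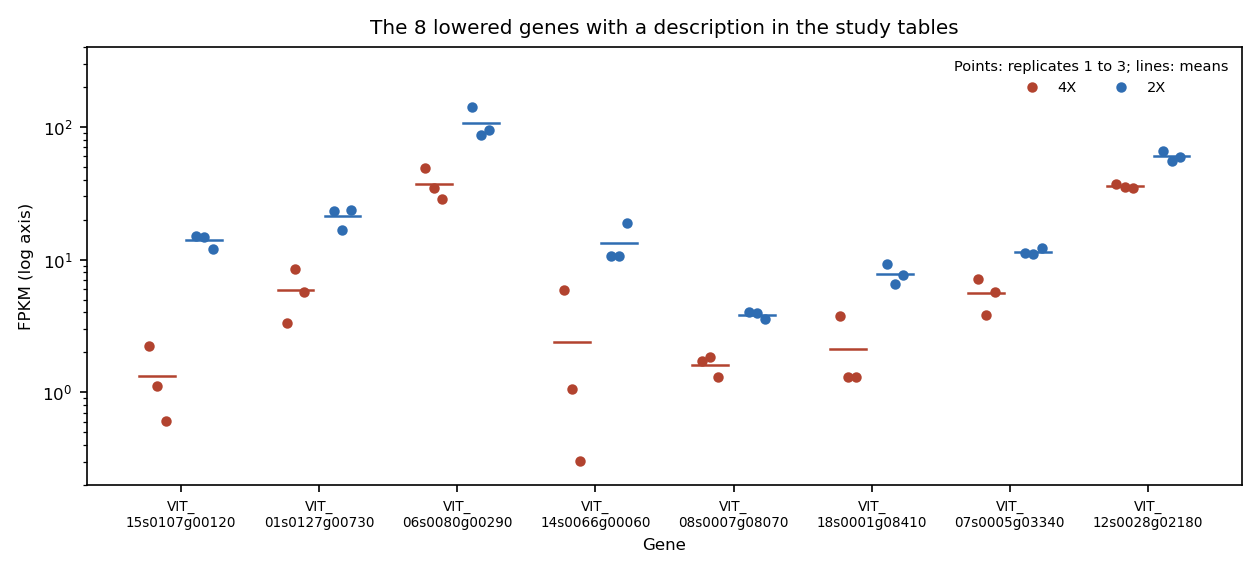
FPKM on a log axis for the 8 genes with a description, ordered by gap, with 4X left of 2X for each gene. Points are replicates 1 to 3 from left to right and lines are means. Every 4X point is below every 2X point of the same gene, and the spread within 4X is widest for VIT_14s0066g00060 at 5.85, 1.06 and 0.305 FPKM.

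The hormone genes of the study's primer table were used as lists of related pathways. The study reports on these genes from the same libraries, so their directions here are not independent evidence. It also reports qPCR of part of them in separate tissue culture plantlets, some treated with ethylene or an inhibitor of its synthesis. Those measurements were not used here. HAT22 was the only one of the 34 among the 61 genes. Of the 12 auxin genes, all tested, none met the gap, although in 8 all 4X values lay below all 2X values, beside 8.85% of all genes, and the median log2 difference was -0.68. The nearest were a SAUR gene (VIT_03s0038g00940), an auxin-induced growth gene, with a gap of 0.48, and IAA19 (VIT_09s0002g05150), a repressor of auxin signalling, with a gap of 0.47. SAUR had 27.7, 20.6 and 21.4 FPKM in 4X and 39.1, 39.2 and 41.0 FPKM in 2X. IAA19 had 131, 111 and 87.0 FPKM in 4X and 186, 182 and 184 FPKM in 2X. Both were thus among the many genes whose libraries did not overlap by a margin that missed the limit. Among the 3 cytokinin genes HAT22 alone met the gap and the median log2 difference was -1.06. Of the 9 ABA genes 4 had all 4X values above all 2X values, and of the 8 ethylene genes tested 5 did, beside 11.2% of all genes. Their median log2 differences were 0.70 and 1.34. With limma, 0 of the 32 hormone genes tested were called in either direction. At an unadjusted p under 0.05, limma had 9 auxin, 2 cytokinin, 1 ABA and 0 ethylene genes lower, and 0 auxin, 1 cytokinin, 4 ABA and 6 ethylene genes higher. Over all 18119 genes, 1183 were lower and 1411 higher at this p.

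Over all genes tested, limma called 5 genes lower (0.0276%) and 11 higher (0.0607%) at a Benjamini-Hochberg adjusted p under 0.05. The paper used Cufflinks on the reads of these libraries and reports many more genes in each direction, at a false discovery rate under 0.05. Of the 61 genes, 3 were among the 5, namely VIT_15s0107g00120 and VIT_12s0028g02160 (limma, adjusted p = 0.0388 in both) and VIT_07s0129g00460 (limma, adjusted p = 0.0492). The last had 13.3, 12.1 and 11.9 FPKM in 4X and 25.4, 22.2 and 25.8 FPKM in 2X, with a ratio of 0.507 and replicates that lay close together. The adjusted p of the 61 genes had a median of 0.106 and a range of 0.0388 to 0.245. Because the genes were chosen by the same contrast, these values support nothing about them. With limma, 53 of the 61 were called without 4X replicate 1 and 0 of the 61 without each of the other 5 libraries in turn. Over all genes tested, 569 were called lower and 185 higher without 4X replicate 1. Without each of the other 5 libraries, 0 or 1 were called lower. The 53 thus go with a rise in calls over all genes tested. The log2 differences of the 3 called genes lay between -3.02 and -2.52 for VIT_15s0107g00120, between -1.54 and -1.33 for VIT_12s0028g02160 and between -0.99 and -0.88 for VIT_07s0129g00460 over these 6 fits.

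The 61 genes differed in how far 4X replicate 1 followed the other 4X libraries. This library was the highest of the 4X libraries in 46 of them (75.4%), beside 36.4% of all genes tested. It was the lowest in 6 (9.84%), beside 43.8%. Its difference from the 2X mean was 0.703 of that of replicates 2 and 3 in the median gene. In 8 genes it differed from 2X at least as much as they did, in 44 between 0.5 and 1 times as much, and in 9 less than 0.5 times as much. Among the 112 genes raised by the same gap, 4X replicate 1 was the nearest to 2X, and so the lowest of 4X, in 41 (36.6%). It was the lowest of 4X in 43.8% of all genes tested.

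**Figure D3:**
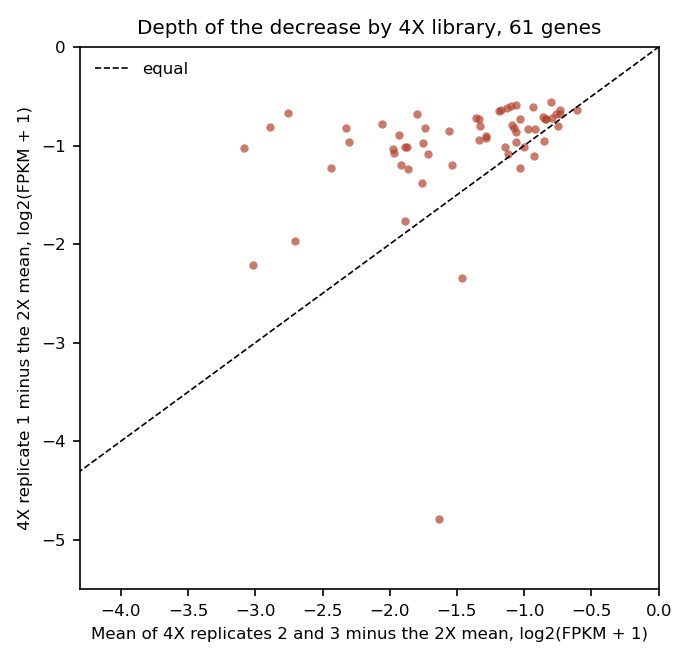
Each of the 61 points is a gene, with the mean difference of 4X replicates 2 and 3 from the 2X mean on the x axis and that of 4X replicate 1 on the y axis, both on log2(FPKM + 1). Most points lie above the dashed line of equality, where 4X replicate 1 fell less, and the lowest point is VIT_18s0001g04920, listed at 0 in that library.

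The extremes of this pattern are named here after their values were seen. VIT_14s0108g01000 had 18.7, 3.32 and 4.00 FPKM in 4X and 32.9, 30.4 and 28.0 FPKM in 2X. VIT_07s0031g00530 had 38.1, 6.003 and 11.2 FPKM in 4X and 62.8, 71.5 and 68.9 FPKM in 2X. In FPKM, 4X replicate 1 was nearer to 2X than to the other 4X libraries in the first gene and about midway in the other, while the 2X libraries lay close together. At the other end, VIT_18s0001g04920 had 0, 7.07 and 8.84 FPKM in 4X and 33.6, 37.9 and 14.7 FPKM in 2X, and it is the only one of the 61 genes listed at 0 in a library. VIT_03s0038g03180 was flat within 4X, with 8.79, 9.07 and 9.23 FPKM in 4X and 18.2, 15.7 and 14.4 FPKM in 2X. VIT_06s0004g07090 was alike, with 11.6, 11.4 and 10.96 FPKM in 4X and 19.4, 18.3 and 20.3 FPKM in 2X. In both, the 3 4X libraries were nearly equal.

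Over the whole set, the SD of log2(FPKM + 1) within 4X had a median of 0.357, beside 0.164 for all genes tested. Within 2X the median SD was 0.144 for the 61 genes and 0.145 for all genes tested. The wider spread was therefore on the 4X side. It was under 0.1 in 10 genes, whose ratio had a median of 0.534 and ran from 0.319 to 0.594. It was above 0.5 in 20 genes, whose ratio had a median of 0.274 and ran from 0.0939 to 0.479. Of all genes tested, 26.1% were under 0.1 and 9.002% above 0.5. The rule fixes the gap and not the mean, so a wider spread within 4X lowers the ratio by construction and these values say nothing more.

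To see how a library behaves that took no part in the gap, the genes tested, filtered on all 6 libraries, were kept. The gap was then required of 5 libraries at a time. Without 4X replicate 1, 538 genes met it, and 257 of them (47.8%) were below all 2X libraries in 4X replicate 1, beside 29.9% of all genes tested. Without 4X replicate 2 it was 78 of 83 genes (94.0%, beside 28.2%), and without 4X replicate 3 it was 75 of 79 (94.9%, beside 27.7%). A gene chosen on 4X replicates 2 and 3 was therefore often not below all 2X libraries in replicate 1. Leaving out 2X replicates 1, 2 and 3 in turn gave 76, 124 and 117 genes, and the 2X library left out was above all 4X libraries in 72 (94.7%, beside 25.6%), 118 (95.2%, beside 22.0%) and 104 of them (88.9%, beside 25.5%). The other ploidy's libraries were used both to choose and to compare in these counts, so they are a description.

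**Figure D4:**
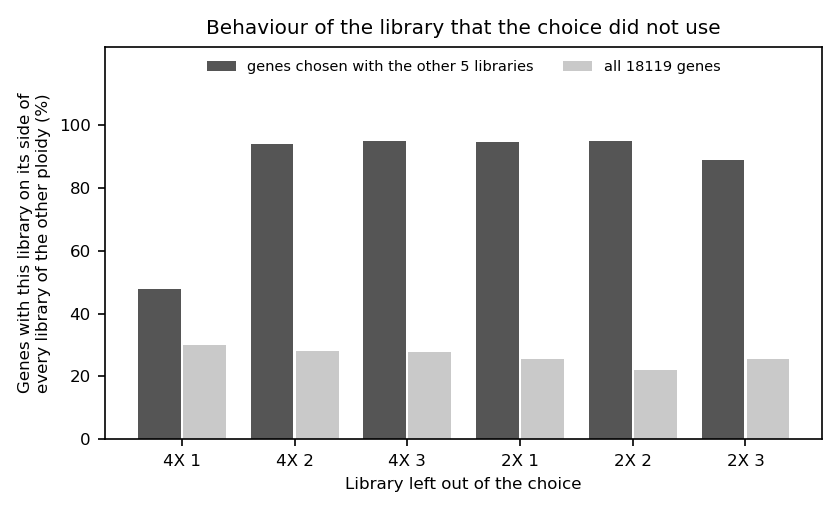
For each library left out of the gap, the dark bar covers the genes in which the other 5 libraries met it. It gives the percent in which that library lay on its side of every library of the other ploidy. The pale bar gives the same over all 18119 genes, which were filtered on all 6 libraries. The dark bar of 4X replicate 1 stands at 47.8%, and those of the other 5 libraries lie between 88.9% and 95.2%.

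The 61 genes, with VIT_16s0013 and VIT_11s0052 left out by the rule, were spread over most chromosomes as far as the identifiers show it. By the chromosome number in the identifier, 59 lay on 17 of the 19 chromosomes and 2 were unassigned. Chromosome 18 had 8 of its 1363 genes tested and chromosome 6 had 7 of 964, the highest share at 0.726%, beside 0.337% over all genes. Chromosome 16 had 2 of 641, where the genes tested include VIT_16s0013 but the 10 genes of that scaffold that met the gap are not counted. With those 10 kept, the share of chromosome 16 would be above that of chromosome 6, so this ranking holds only for the 61 genes. Chromosomes 4 and 5 had none, of 996 and 1012 genes tested. The genes fell on 37 scaffolds, and 15 scaffolds with at least 2 of them held 39. The share of all genes tested that lie on these 15 scaffolds was not counted, so the 39 show neither grouping nor scatter.

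Few of the 61 genes lay near each other. None had another of them as the next listed gene, and 2 (3.28%) had another within 2 listed genes, beside 0.971% of all genes tested that lay so near to one of the 61. This is the pair VIT_12s0028g02160 and VIT_12s0028g02180, the gene with the fifth widest gap and the plasmodesma gene described above. Between them lies VIT_12s0028g02170, with 39.4, 41.2 and 40.5 FPKM in 4X and 36.4, 40.8 and 35.1 FPKM in 2X, so the decrease did not run through the stretch. Within 5 listed genes there were 4 (6.56%, beside 2.24% of all genes tested), with VIT_11s0037g00980 and VIT_11s0037g01030 added. VIT_11s0037g00980 had 2.55, 2.78 and 2.49 FPKM in 4X and 4.47, 4.43 and 4.73 FPKM in 2X. VIT_11s0037g01030 had 0.636, 0.443 and 0.586 FPKM in 4X and 1.38, 1.72 and 2.12 FPKM in 2X. The SD of log2(FPKM + 1) within 4X was 0.060 for VIT_11s0037g00980 and 0.095 for VIT_11s0037g01030. The added 1 narrows this SD for VIT_11s0037g01030, which was below 1 FPKM in all 4X libraries. With the 10 genes of VIT_16s0013 kept, 11 of 71 genes (15.5%, beside 1.05%) had such a neighbour within 2 listed genes, so most neighbours in the full list were on the scaffold left out. Among the genes raised by the same gap, 10 of 112 (8.93%, beside 1.496%) had one.

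The genes that flank the 61 on either side were taken by position, within 2 listed genes, and those that met the gap themselves were left out. Of the 237 others, 174 passed 1 FPKM. Of these, 58.0% had a lower mean in 4X than in 2X, beside 47.5% of all genes tested, but their median log2 difference was only -0.03, beside 0.01. All 4X values lay below all 2X values in 26 (14.9%), beside 8.85%. They lay above all 2X values in 16 of the 174, a smaller share than the 11.2% of all genes tested. With limma, 0 of the 174 were called. At an unadjusted p under 0.05, limma had 22 lower and 12 higher, where it had 1183 and 1411 of all 18119 genes. Lower genes were thus a larger share of the 174 than of all genes tested, and higher genes a slightly smaller share. The log2 differences of the 174 ran from -1.44 to 0.83.

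The flanks of the Mediator gene VIT_14s0066g00060 had the lowest of these values. VIT_14s0066g00050, the gene listed before it, had 66.7, 19.7 and 16.3 FPKM in 4X and 80.0, 63.4 and 92.2 FPKM in 2X, a log2 difference of -1.44 ± 0.49 (SE, n = 3 each). VIT_14s0066g00100 had 32.7, 11.6 and 13.2 FPKM in 4X and 32.6, 28.3 and 34.5 FPKM in 2X. In both, 4X replicate 1 was within the 2X range and the other 4X libraries were far below it, and replicate 1 was also the highest 4X library in the Mediator gene. VIT_14s0066g00020 and VIT_14s0066g00070 differed by -0.68 and -0.58, and limma called none of these 4 genes (adjusted p = 0.249 to 0.381). Strand handling is not given in the sources used here, so reads of overlapping neighbours could not be told apart. The flanks of the flowering repressor VIT_15s0107g00120 were all below 1 FPKM in the mean and were not tested. Next to HAT22, VIT_18s0001g08420 had 78.0, 74.5 and 94.5 FPKM in 4X and 55.9, 62.5 and 59.9 FPKM in 2X, higher in 4X where HAT22 was lower.

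**Figure D5:**
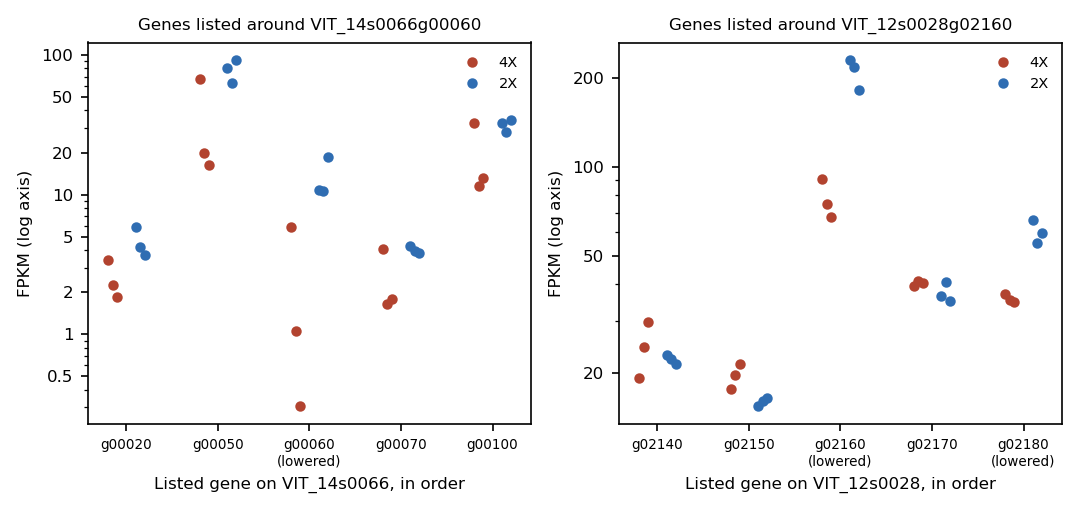
FPKM on a log axis for the genes listed around VIT_14s0066g00060 on the left and around VIT_12s0028g02160 on the right, in listed order, with 4X left of 2X and points for replicates 1 to 3. On the left, the 4X points of replicates 2 and 3 lie below all 2X points in all 5 genes, and on the right only the genes marked as lowered have every 4X point below every 2X point.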

How the data were processed

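Total RNA of terminal buds was sequenced in 3 libraries of 4X and 3 of 2X, grouped by the ploidy in the labels. The authors trimmed the reads with FASTX-Toolkit, aligned them with TopHat2 2.0.14 and used Cufflinks 2.2.1, and they deposited FPKM per gene and library. The build, the annotation version, the strand setting and any further scaling are not given in the sources used here. Counts were not used here, so the number of reads behind a value is unknown. Genes whose mean of 6 libraries reached 1 FPKM were compared on log2(FPKM + 1) with limma 3.58.1 in R 4.3.3 (variance trend, two-sided, Benjamini-Hochberg over 18119 genes, threshold 0.05). The smallest two-sided p of an exact permutation test of 3 against 3 libraries is 0.1, so none was used. Python 3.11.15 with pandas 2.3.3, numpy 2.4.6 and matplotlib 3.10.9 was used for counts and plots.

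The 61 genes and all lists were chosen with earlier results of these data known. Named are the genes with a description, the 10 widest gaps, neighbours within 2 listed genes, the genes at the limit of the gap, the highest and lowest mean and the primer-table genes among the 61. Other genes named were chosen after their values were seen. Descriptions come from the study's supplementary tables. For decreased genes, 27 GO terms were read here, fewer than the paper reports as enriched. Of these 27, 13 are held in full, with 71 genes of which 2 are among the 61. As held, all terms give 134 genes with 5 of the 61, and the terms for increased genes give 173 with 0 of them. The reference table holds 0 of the identifiers, so lists by description and other tissue markers were not run. The alternatives were another pseudocount, filters, scalings, gaps and neighbour windows, no variance trend, a replicate block, and each library left out with the genes tested kept as they were.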

Additional observations from a re-analysis of the deposited data

How the results depend on the processing

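The number of genes that met the rule was 61, and it was 76 to 538 with 1 library left out, of which 4X replicate 1 gave 538, 2X replicate 2 gave 124 and 2X replicate 3 gave 117. A gap of more than 0.25 gave 261 genes with a median log2 difference of -0.75, and a gap of more than 1 gave 4 with -2.07. Every 4X library below 0.5 of the lowest 2X library, added after seeing the data, gave 13. A pseudocount of 0.1 gave 86, no filter 66, a filter in either ploidy 65, median scaling 61 (58 shared) and quantile normalization 64 (59 shared). Genes with another as a neighbour were 2, and 0 for the next gene only, 4 within 5 genes and 11 with the left-out scaffolds kept, the last added after seeing the data. With limma, 5 genes were lower and 11 higher. With no filter 0 were lower and 0 higher, and at an unadjusted p under 0.05 it was 1364 and 1778. With the replicate number as a block, 0 were lower and 0 higher (1031 and 1259 at an unadjusted p under 0.05). Deviations of libraries with the same number correlated at -0.0076, -0.051 and 0.087. Over all genes these values showed no pairing by number, but a pairing that touches few genes would not be seen in them. With 1 library left out, 0 to 569 were lower and 0 to 185 higher, the highest without 4X replicate 1. Under the other alternatives 4 to 5 were lower and 10 to 15 higher. FPKM without counts limits what can be said of genes near 1 FPKM.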
